A study of Mus musculus with 20 samples.

Results

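The genes described here are 8 Toll-like receptors of the mouse, the co-receptor CD14 and the adaptor MyD88, 10 of the 39017 genes in the deposited count table, chosen by symbol. Tlr1, Tlr2, Tlr4 and Tlr6 encode receptors of the cell surface, and Tlr3, Tlr7, Tlr9 and Tlr13 encode receptors of the endosome. Their RNA was counted in microglia and in astrocytes, both taken by flow sorting from the injured side of the forebrain of adult male C57BL/6J mice. The brains were collected on day 7 after lateral fluid percussion injury (FPI) or sham surgery, and each of the 4 groups holds 5 libraries. FPI strikes the exposed dura with a pulse of fluid. Sham mice had the same craniectomy and anesthesia and were connected to the device, which was not released. Microglia were gated as CD11b+ cells with intermediate CD45, a gate that does not by itself separate microglia from other brain macrophages of similar surface level, and astrocytes by an astrocyte surface antigen. Per the study's methods a library came from 1 animal without pooling. The p-values measure the spread between libraries, which are not all from different animals, as described with the library names.

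Toll-like receptors bind conserved parts of microbes and some products of damaged cells. The surface receptors bind mainly lipids and lipoproteins, TLR2 as a pair with TLR1 or TLR6 and TLR4 with help from CD14, while the endosomal receptors bind nucleic acids. All of them except TLR3 signal through MyD88 to NF-κB and to factors of the IRF family, and TLR3 signals through TRIF. In the brain microglia are the main carriers of these receptors, and TLR3, the receptor for double-stranded RNA, is also known in astrocytes.

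Library totals ran from 5.62 to 13.1 M counts over the 20 libraries. Levels are given as CPM (reads of a gene per M reads of its library, with TMM factors) and as CPM per kilobase of exon where genes are set against each other. In microglial libraries the 8 microglial markers summed to 17170 to 26520 CPM, against 104 to 254 CPM in astrocyte libraries. The 7 astrocyte markers summed to 9651 to 30040 CPM in astrocyte libraries, which also held 1282 to 13040 CPM of 6 oligodendrocyte lineage markers and 234 to 4081 CPM of 5 endothelial and mural markers. Microglial libraries 4 and 5 of each condition carry names of another series (numbers with J-A) than libraries 1 to 3 (numbers with M). What these series of names stand for is not given in the sources used here. Summed border macrophage markers were 18.4 to 59.4 CPM in microglial libraries 4 and 5 against 142 to 458 CPM in libraries 1 to 3. The name of FPI astrocyte library 5 has an M as well, where the other astrocyte names have an A, and it repeats the number in the name of library 2 of that group. Judged by such numbers, those 2 libraries share an animal, and 3 animals are present with both cell types, so p-values in astrocytes and across cell types treat related libraries as independent. Since the RNA is bulk, fewer cells of a type and less RNA per cell cannot be told apart.

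The 10 genes lie on 7 chromosomes, and Tlr1 and Tlr6 are neighbors on chromosome 5. Tlr2 spans chr3:83836272-83841767 on the minus strand (GRCm38, GENCODE M21) with 3014 bases of exon, and Tlr9 spans chr9:106222598-106226883 on the plus strand with 3478. Tlr1 spans chr5:64924679-64933563 and Myd88 chr9:119335934-119341411, both on the minus strand. Of Tlr3, 381 exon bases also belong to an antisense gene, Gm45542, and of Myd88, 290 also belong to Acaa1a on the opposite strand. Whether the counting used strand is not given in the sources used here, so reads in those stretches cannot be assigned to 1 gene of the pair. Likewise, reads that fit both Tlr1 and its paralog Tlr6 are uncertain.

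RefSeq promoter windows (GRCm38.p6) were held for 7 of the 10 genes, not for Tlr4, Tlr7 or Cd14. The 250 bases before each start were searched on both strands for the NF-κB consensus, the ISRE (GAAANNGAAA, an element read by IRF family factors), AP-1 (TGANTCA) and PU.1 (GAGGAAGT, the factor that sets the myeloid program). Of all 32851 such windows, 7.25% held the NF-κB consensus, 2.98% the ISRE, 6.75% the AP-1 letters and 2.44% the PU.1 letters. The sequences below are shown for the receptor that rose after FPI, for its partner TLR1, for the shared adaptor and for a receptor read almost only in microglia. They run 5′ to 3′ on the strand of the gene, stop where the first annotated exon base begins, and have motif matches in capitals.
Tlr2, chr3:83841768-83841858, NF-κB: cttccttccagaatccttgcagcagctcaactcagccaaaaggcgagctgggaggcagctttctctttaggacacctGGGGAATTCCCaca
Tlr1, chr5:64933564-64933808, PU.1: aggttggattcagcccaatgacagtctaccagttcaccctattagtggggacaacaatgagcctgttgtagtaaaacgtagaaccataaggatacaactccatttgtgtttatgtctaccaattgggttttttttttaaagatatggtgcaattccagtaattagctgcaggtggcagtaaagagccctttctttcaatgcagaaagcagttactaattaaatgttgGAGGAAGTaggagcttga
Myd88, chr9:119340042-119340268, ISRE: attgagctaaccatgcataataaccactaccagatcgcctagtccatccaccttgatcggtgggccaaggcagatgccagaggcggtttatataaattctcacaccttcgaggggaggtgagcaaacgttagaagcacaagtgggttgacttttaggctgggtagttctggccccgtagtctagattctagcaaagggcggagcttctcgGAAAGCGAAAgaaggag
Tlr9, chr9:106222348-106222597, AP-1: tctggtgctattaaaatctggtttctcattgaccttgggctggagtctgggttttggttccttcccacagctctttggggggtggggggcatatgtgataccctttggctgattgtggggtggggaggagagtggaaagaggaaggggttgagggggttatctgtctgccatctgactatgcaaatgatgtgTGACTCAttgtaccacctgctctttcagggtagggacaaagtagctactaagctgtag
The capitals of Tlr2 are 2 overlapping matches that cover bases 173 to 163 before the RefSeq start. The stretch shown for Myd88 lies inside the span of that gene, between exons of GENCODE, and the other 3 lie outside their genes. The ISRE match of Myd88 lay 40 to 31 bases before the start, the PU.1 match of Tlr1 23 to 16 bases and the AP-1 match of Tlr9 58 to 52 bases. In the windows of the other members, Tlr6 held 2 overlapping ISRE matches, Tlr3 held 1 NF-κB match and Tlr13 held none of these letters. A match is a description of the letters in these windows and does not show that a factor binds there.

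In sham microglia 3 of the 4 endosomal receptors stood above every surface receptor per length of exon. Cd14 was highest at 79.1 ± 8.20 CPM per kilobase (SD, n = 5), with no library overlapping the next gene. Tlr7 (55.1 ± 6.48), Tlr9 (49.4 ± 8.22) and Tlr13 (49.0 ± 6.11), which encode receptors for single-stranded RNA, CpG DNA and a sequence of bacterial ribosomal RNA, followed within each other's range. Below them, without overlap, came Tlr2 (28.9 ± 4.19), whose range overlapped that of Myd88 (22.8 ± 7.43). Tlr4 (14.3 ± 1.65) overlapped the lower end of Myd88 and the upper end of Tlr3 (11.6 ± 1.32), and Tlr1 (7.34 ± 0.735) and Tlr6 (6.5 ± 0.996) were lowest and overlapped as well.

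In FPI microglia Tlr2 reached 47.9 ± 8.16 CPM per kilobase and stood within the ranges of Tlr7 (57.6 ± 12.1), Tlr9 (46.5 ± 7.48) and Tlr13 (45.9 ± 11.9). The ranges of these 4 genes and of Cd14 (84.8 ± 8.47) overlapped from each to the next, and a gap without overlap separated Tlr13 from Myd88 (17.7 ± 3.91). Measured over the longest transcript in place of all exons, 8 of the 10 ranks were the same in sham microglia and 5 of 10 in FPI microglia, with Tlr13 ahead of Tlr9 in both.

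**Figure D1:**
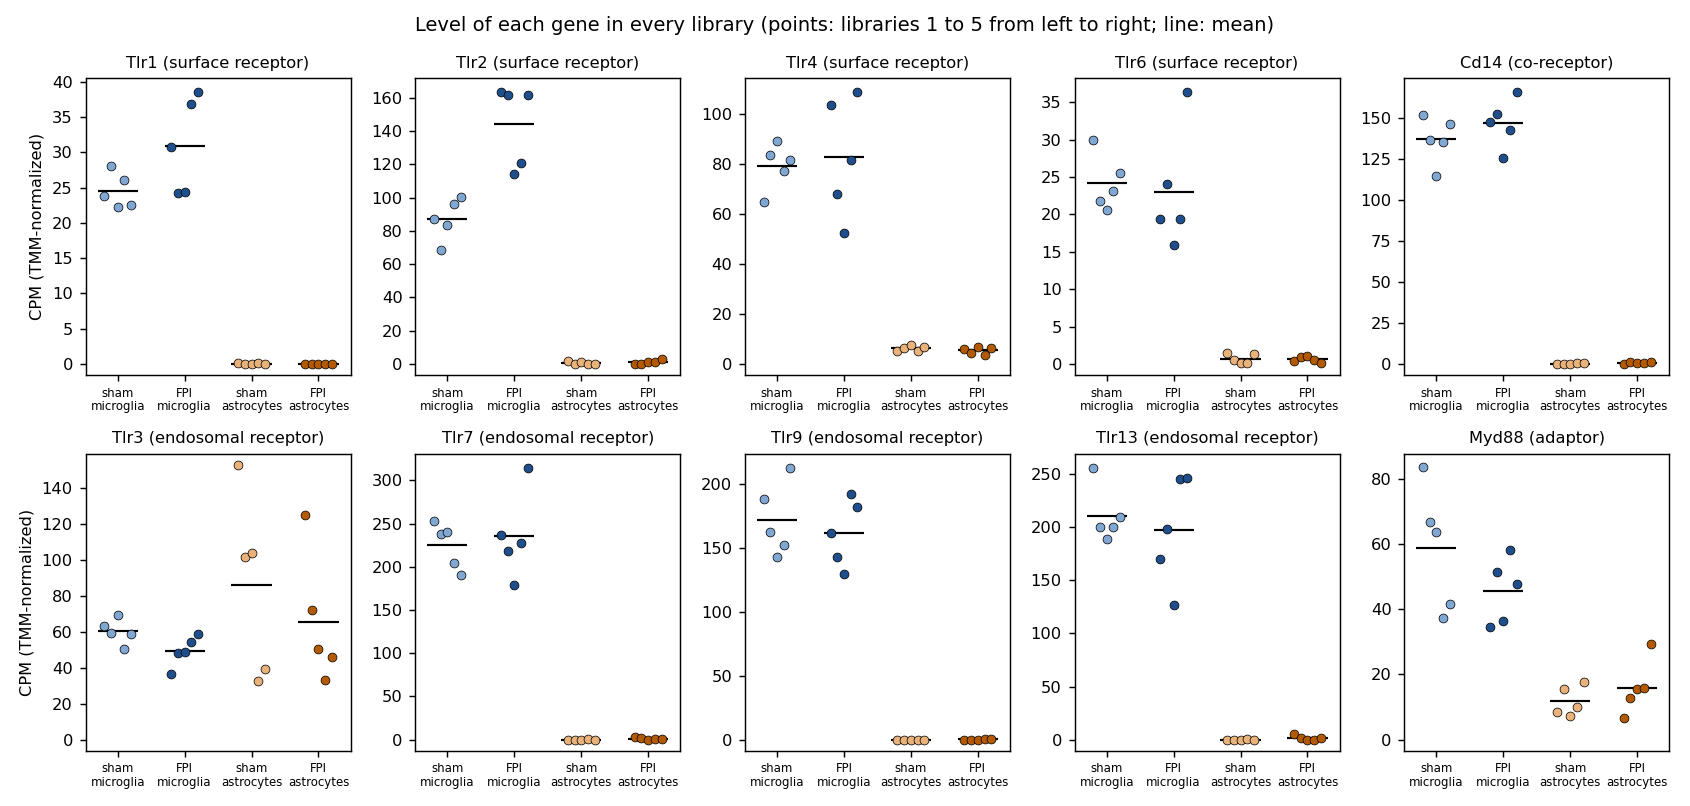
Level of each of the 10 genes in CPM (vertical axes, linear, a scale for each gene) in the 20 libraries, by group, with points for libraries 1 to 5 from left to right and a line at the mean. Tlr2 in FPI microglia lies above every sham library, the mean of 9 genes is lower in astrocytes, and Tlr3 alone reaches its highest values in astrocytes.

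Among the surface receptors, Tlr2 rose in microglia after FPI and the other 3 did not pass the test. Tlr2 was at 87.0, 68.2, 83.3, 96.4 and 101 CPM in sham libraries 1 to 5 and at 163, 161, 114, 121 and 162 CPM in FPI libraries 1 to 5. Every FPI library was above every sham library, as for 2.17% of the 12143 genes tested. The log2 fold change was 0.75 (SE 0.15, 95% interval 0.43 to 1.06, edgeR adjusted p = 0.0088), the gene of rank 107 by p. Calls here need an adjusted p below 0.1 and an absolute log2 fold change above 0.6, and 2.35% of the tested genes were called in microglia. Of the 10 members 1 was called, and their median log2 fold change was 0.02 beside -0.01 over all tested genes.

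The rise of Tlr2 was measured in both series of library names. Libraries 1 to 3 alone gave 0.87 (adjusted p = 0.019) and libraries 4 and 5 alone 0.57, which missed the threshold (edgeR adjusted p = 0.25). With all 20 libraries in 1 fit, which shares the spread with astrocytes, the fold was 0.73 and the call was lost (adjusted p = 0.60). Summed monocyte and neutrophil markers were 3.63 to 13.3 CPM in sham and 1.08 to 19.6 CPM in FPI microglia, with Ly6c2 and Ly6g at 0 in both. Summed border macrophage markers were 18.4 to 458 CPM in sham and 23.6 to 270 CPM in FPI microglia. Their part in the Tlr2 result was not tested.

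Tlr1, whose product pairs with TLR2 on triacylated lipoproteins, was at 23.9, 28.0, 22.3, 26.1 and 22.5 CPM in sham and at 30.7, 24.2, 24.5, 36.8 and 38.6 CPM in FPI microglia. The upper 3 FPI libraries lay above all sham libraries and the lower 2 among them, with a log2 fold change of 0.35 (SE 0.19, interval -0.04 to 0.74) that was not called (edgeR adjusted p = 0.51). Tlr6, the other partner of TLR2, was at 20.6 to 29.99 CPM in sham and 15.9 to 36.4 CPM in FPI microglia, a log2 fold change of -0.05 (interval -0.53 to 0.43). Tlr4, the receptor for lipopolysaccharide, was at 64.9 to 89.2 CPM in sham and 52.3 to 109 CPM in FPI microglia, a log2 fold change of 0.09 (interval -0.29 to 0.47). For both, the FPI libraries spread to either side of the sham libraries.

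Cd14, which hands lipopolysaccharide to TLR4 and also serves TLR2, did not pass the test. It was at 152, 136, 115, 135 and 147 CPM in sham microglia and at 147, 153, 126, 143 and 166 CPM in FPI microglia. The groups overlapped, and the log2 fold change of 0.12 (SE 0.12, interval -0.14 to 0.38) had an interval inside the fold threshold.

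Myd88 did not pass the test over all 10 microglial libraries, and its direction differed between the series of library names. It was at 83.7, 66.7, 63.8, 37.5 and 41.5 CPM in sham microglia and at 34.6, 51.3, 36.3, 58.2 and 47.8 CPM in FPI microglia. The sham libraries 1 to 3 were the highest of the 10, and libraries 4 and 5 of the sham group were below those of the FPI group. The log2 fold change was -0.35 over all libraries (SE 0.21, edgeR adjusted p = 0.60), -0.83 in libraries 1 to 3 alone (adjusted p = 0.045, which passes both thresholds) and 0.47 in libraries 4 and 5 alone (adjusted p = 0.45). The split was chosen after the data had been seen, and the difference between the series was not tested.

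The 4 endosomal receptors did not pass the test in microglia, and their intervals lay inside the fold threshold of 0.6 in either direction. Tlr3 was at 62.98, 59.4, 69.5, 50.5 and 58.9 CPM in sham and at 36.4, 48.1, 48.7, 54.4 and 58.9 CPM in FPI microglia, lower by mean but overlapping. Its log2 fold change was -0.28 (SE 0.15, interval -0.60 to 0.04, edgeR adjusted p = 0.55). Tlr7 was at 190 to 253 CPM in sham and 179 to 315 CPM in FPI microglia, a log2 fold change of 0.08 (interval -0.23 to 0.39). For Tlr9 the ranges were 143 to 213 and 130 to 192 CPM, with a log2 fold change of -0.07 (interval -0.38 to 0.24). For Tlr13 they were 189 to 256 and 127 to 246 CPM, with a log2 fold change of -0.08 (interval -0.43 to 0.27). FPI library 3 was the lowest of the 5 for each of Tlr7, Tlr9 and Tlr13.

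**Figure D2:**
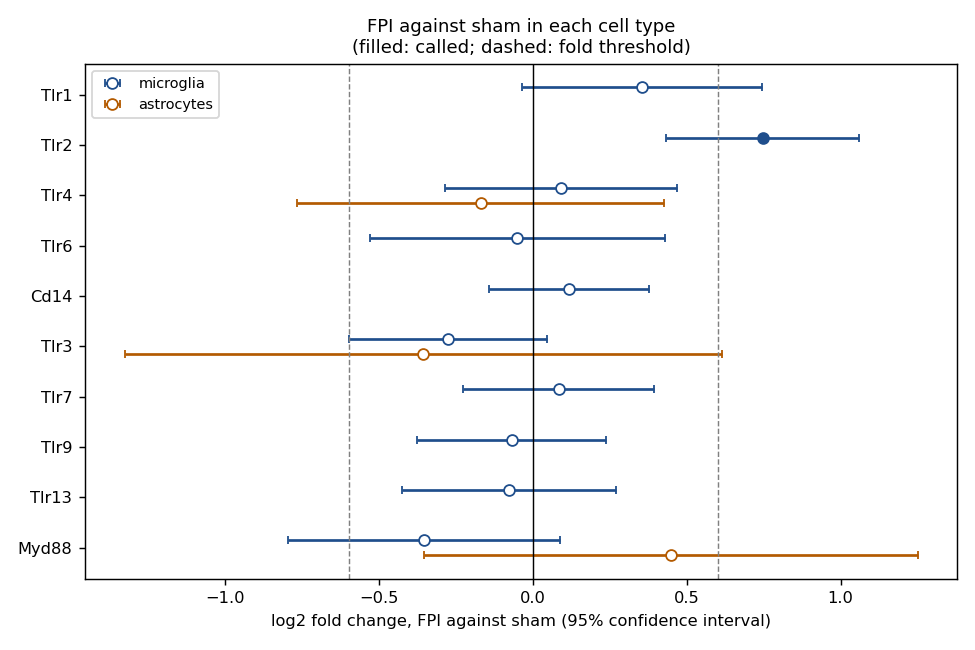
Log2 fold change of FPI against sham (horizontal axis) for each gene in microglia and, for the 3 genes that passed the filter on low counts there, in astrocytes, with points for edgeR estimates, bars for 95% intervals, filled points for calls and dashed lines at the fold threshold of 0.6. Tlr2 in microglia is the 1 filled point, and the astrocyte interval of Tlr3, -1.33 to 0.62, is the widest drawn.

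Summed per length, the surface receptors stood at 55.7, 51.9, 55.9, 59.9 and 61.6 CPM per kilobase in sham and at 87.2, 79.5, 58.9, 70.9 and 94.5 in FPI microglia. The endosomal receptors summed to 188, 163, 157, 150 and 168 in sham and to 151, 150, 120, 179 and 198 in FPI microglia. Of the summed member receptors, the surface receptors thus made up 25.7 ± 2.23% in sham and 33.0 ± 3.04% in FPI microglia. FPI library 4 (28.4%) was just below sham library 4 (28.5%). Toll-like receptors that are not members, among them Tlr5, are not in these sums. Without Tlr2, the other 3 surface receptors summed to 28.1 ± 0.875 in sham and 30.4 ± 7.52 CPM per kilobase in FPI microglia, while Tlr2 alone went from 28.9 ± 4.19 to 47.9 ± 8.16. No test was made on these sums.

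**Figure D3:**
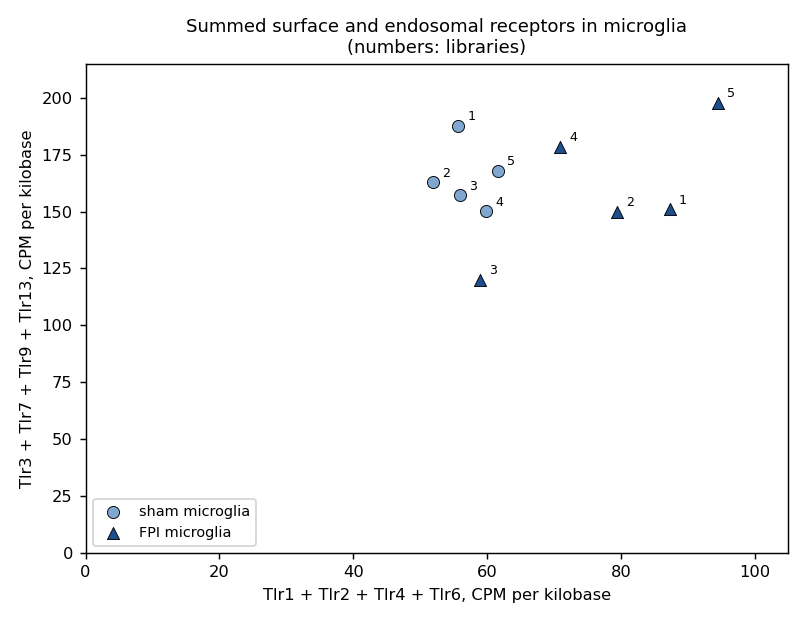
Summed surface receptors (horizontal axis) against summed endosomal receptors (vertical axis), both in CPM per kilobase of exon, in the 10 microglial libraries, each a numbered point. The FPI points lie to the right of the sham points apart from library 3, and the heights of the groups overlap.

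In astrocytes Tlr3 was the leading member, and no member was called after FPI. Tlr3, Tlr4 and Myd88 passed the filter on low counts there, and the other 7 did not and were not tested. Of the 3 tested, 0 were called by edgeR or DESeq2 and 0 had an unadjusted p below 0.05. The edgeR background in astrocytes was 0.00728%, or 1 called gene of 13741, so a count of 0 says little about these genes. The share of all genes called by DESeq2 is not given here.

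Tlr3 was at 153, 102, 104, 32.7 and 39.4 CPM in sham and at 125, 72.2, 50.6, 33.2 and 46.0 CPM in FPI astrocytes. The spread within a group was larger than the difference between groups, and the log2 fold change was -0.36 (SE 0.45, interval -1.33 to 0.62). Tlr3 moved with the astrocyte markers of the libraries. The 4 libraries with the least Tlr3 were the 4 with the lowest sum of astrocyte markers, and they were libraries 4 and 5 of each condition. Tlr3 varied 4.67-fold over the 10 libraries but 2.00-fold per unit of that sum. Per 1000 CPM of astrocyte markers it stood at 3.96 ± 0.994 CPM in sham and 3.34 ± 0.593 CPM in FPI astrocytes. In sham library 4, which held the least astrocyte marker RNA (9651 CPM), the oligodendrocyte lineage markers summed to 13040 CPM. What part the mix of cells, or another difference between libraries 4 and 5 and the rest, has in the Tlr3 spread was not tested.

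**Figure D4:**
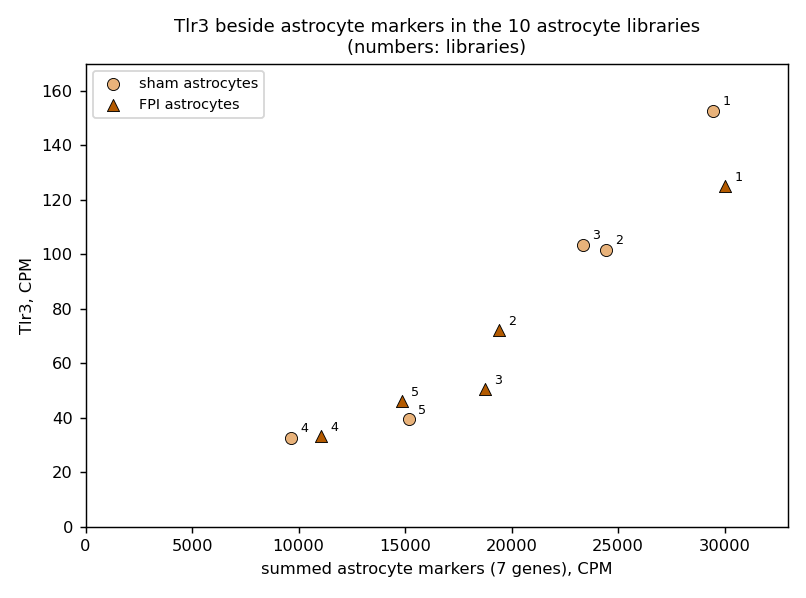
Tlr3 in CPM (vertical axis) against the sum of 7 astrocyte markers in CPM (horizontal axis) in the 10 astrocyte libraries, each a numbered point, sham as circles and FPI as triangles. The libraries run from 32.7 CPM of Tlr3 at 9651 CPM of markers to 153 CPM at 29460, with sham and FPI points along the same course.

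Tlr4 and Myd88 were low but present in every astrocyte library. Tlr4 was at 5.31, 6.36, 7.42, 5.34 and 6.70 CPM in sham and at 5.87, 4.51, 6.60, 3.64 and 6.55 CPM in FPI astrocytes, with a log2 fold change of -0.17 (interval -0.77 to 0.43). These are 7.86% of the sham microglial mean and 6.55% of the FPI microglial mean. Myd88 was at 8.37, 15.5, 7.31, 10.2 and 17.8 CPM in sham and at 6.60, 12.7, 15.5, 15.7 and 29.2 CPM in FPI astrocytes, a log2 fold change of 0.45 (interval -0.35 to 1.25). It stood at 20.2% of the microglial mean in sham and 34.9% in FPI mice. The 8 microglial markers stood at 0.0195 to 7.16% (median 0.0608%) in sham and 0.0773 to 8.95% (median 0.312%) in FPI mice. Sall1 was the highest of them in both. The part of RNA from microglia or other cells in the Tlr4 and Myd88 reads was not tested. Acaa1a, which shares exon bases with Myd88 on the opposite strand, was at 55.5 ± 5.12 CPM in sham and 60.1 ± 12.4 CPM in FPI astrocytes, above Myd88, and its part in the Myd88 counts was not tested.

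The other 7 members were at or near 0 in sham astrocytes. Over the 5 sham astrocyte libraries together, 1 read fell on Tlr9, 3 on each of Tlr1, Tlr7 and Tlr13, 11 on Cd14, 28 on Tlr2 and 30 on Tlr6. For Tlr9 this is 0.0119% of the microglial level (95% exact Poisson interval 0.0003 to 0.0665%, counting error only) and for Tlr7 0.0274% (0.0056 to 0.0799%). Tlr2 was at 0.751% (0.499 to 1.09%) and Tlr6 at 2.96% (1.99 to 4.22%). In FPI astrocytes Tlr1 had 0 reads in all 5 libraries, so the microglial level was at least 409-fold higher, with 3 counts over the group as the floor.

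Reads of Tlr7 and Tlr13 were more frequent in FPI astrocytes, where they lay mainly in library 1. Tlr7 had 34, 13, 1, 5 and 4 reads in FPI libraries 1 to 5, and Tlr13 had 53, 12, 1, 0 and 9. In library 1 these were 1.49% and 2.77% of the FPI microglial mean, beside a median of 0.444% for the microglial markers, while Tlr9, Tlr1 and Cd14 had 0 reads. In library 2 the same 2 receptors were at 0.692% and 0.761% beside a marker median of 0.377%, and in library 5 at 0.272% and 0.728% beside 0.525%. The microglial markers were themselves higher in FPI than in sham astrocytes, with Csf1r at 0.513 to 6.77 CPM in sham and 2.12 to 38.2 CPM in FPI libraries. The part of microglial RNA in these reads was not tested.

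Between the cell types, 9 of the 10 members were called higher in microglia in sham mice and 9 in FPI mice, where 25.3% and 25.9% of 15077 genes were called higher in microglia. Of these 9, 7 did not pass the filter on low counts in astrocytes alone and entered the test only through their microglial reads, so for Tlr1, Tlr2, Tlr6, Tlr7, Tlr9, Tlr13 and Cd14 the direction was largely set by the filter and the count is no support. Tlr4, Myd88 and Tlr3 passed it in both cell types. Myd88 had a log2 fold change of 2.31 in sham (SE 0.33, edgeR adjusted p = 3.83e-06) and 1.52 in FPI mice (SE 0.33, adjusted p = 0.00037). Tlr4 had 3.67 (SE 0.22) and 3.93 (SE 0.22). Tlr3 was the exception, with a log2 fold change of microglia against astrocytes of -0.51 in sham (interval -1.25 to 0.22, adjusted p = 0.21) and -0.41 in FPI mice (interval -1.15 to 0.33, adjusted p = 0.33). Without the astrocyte libraries of animals that gave both cell types, the sham value was -0.95 and passed the test (edgeR adjusted p = 0.011). That setting drops sham astrocyte libraries 4 and 5, which held the least Tlr3 of their group (32.7 and 39.4 CPM). Without sham astrocyte library 4 alone the sham value was -0.69 and passed as well (adjusted p = 0.077).

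Whether FPI acted differently on the members in microglia and in astrocytes was tested as an interaction, and 0 of 10 were called by edgeR, where 0.199% of 15077 genes were called. The 4 members at an unadjusted p below 0.05, Tlr1, Tlr7, Tlr9 and Tlr13, are among the 7 that did not pass the filter in astrocytes, with 3, 3, 1 and 3 reads over the sham astrocyte libraries, so their test rests on almost no astrocyte reads. For Tlr3, Tlr4 and Myd88, which passed it, the unadjusted p was above 0.05. For Tlr2 the effect in microglia minus that in astrocytes was -0.02 on the log2 scale (interval -1.11 to 1.06), which leaves the change of Tlr2 in astrocytes unresolved at these counts. For Tlr7 and Tlr13 the differences were -4.05 (SE 0.91, edgeR adjusted p = 0.11) and -4.58 (SE 1.12, adjusted p = 0.17), from 3 sham reads of each and from 57 and 75 FPI reads, of which 34 and 53 lay in library 1. DESeq2 called both (adjusted p = 0.0060 and 0.0091), as did edgeR for FPI against sham astrocytes with all 20 libraries in 1 fit, each time through a filter that the genes passed by their microglial reads. The share of all genes called in those fits is not given here, and these calls are not taken as a change in astrocytes. Without FPI astrocyte library 1, in which most of the reads lay, the edgeR values were -3.20 (adjusted p = 0.17) for Tlr7 and -3.31 (adjusted p = 0.28) for Tlr13. Without FPI astrocyte library 3 or library 4 both were called, and without sham astrocyte library 4 Tlr7 alone was (-6.46, adjusted p = 0.082).

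Around the members, 79 other genes of Toll-like receptor signaling were listed by role. In microglia 65 were tested and 7 called, 6 higher and 1 lower after FPI, where 2.35% of all tested genes were called, and the median log2 fold change of the 65 was 0.07. Of the other receptors, Tlr5, the receptor for flagellin, was at 26.96 ± 5.53 CPM in sham and fell to 14.4 ± 4.56 CPM in FPI microglia (log2 fold change -0.88, SE 0.23, edgeR adjusted p = 0.060). It was the 1 listed gene called lower, as were 0.214% of all tested genes. The groups overlapped, and the call was lost without any 1 of 7 libraries, sham 1, 2, 3 or 5 or FPI 1, 2 or 4 (adjusted p up to 0.21). Tlr8 was at 2.34 ± 2.46 and 0.866 ± 0.933 CPM and was not called.

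Of 11 accessory proteins tested, 2 rose, the lysosomal proteases Ctsb and Ctsl, members of the family that cleaves endosomal receptors into their active form. Ctsb had 1526 ± 137 CPM in sham and 2794 ± 529 CPM in FPI microglia (log2 fold change 0.89, SE 0.15, edgeR adjusted p = 0.0016). The groups had no overlap, as for 2.17% of tested genes with FPI above. Ctsl had 499 ± 56.3 and 805 ± 195 CPM (0.71, SE 0.16, adjusted p = 0.025). The call of Ctsl was lost without sham library 2 or FPI library 5. Unc93b1, which carries the endosomal receptors out of the endoplasmic reticulum, was at 1255 ± 111 in sham and 1307 ± 180 CPM in FPI microglia. Ly96, the partner of TLR4 that holds lipopolysaccharide, was at 5.09 ± 1.09 and 5.10 ± 2.26 CPM. These are levels on the CPM scale and were not called.

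Of 8 transcription factors, 3 rose and their FPI libraries all lay above the sham libraries. Of all genes tested in microglia, 2.35% were called and 2.17% had every FPI library above every sham library. Irf7, which drives interferon genes downstream of TLR7 and TLR9 and is itself induced by interferon, had 7.73 ± 2.76 CPM in sham and 54.4 ± 26.7 CPM in FPI microglia (log2 fold change 2.85, SE 0.34, edgeR adjusted p = 6e-05). The NF-κB subunits Relb and Nfkb2, which act together, had 25.7 ± 4.03 and 41.8 ± 4.04 CPM (0.72, SE 0.16, adjusted p = 0.021) and 41.3 ± 5.03 and 64.2 ± 14.0 CPM (0.65, SE 0.16, adjusted p = 0.036). The call of Nfkb2 was lost without sham library 1 or 2 or FPI library 1 or 3. The other 5 factors, Rela, Rel, Nfkb1, Irf3 and Irf5, were not called.

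Of 11 cytokine and chemokine targets tested, 1 was called, Cxcl10, a chemokine induced by interferon. It was at 4.22 ± 2.45 CPM in sham and 13.1 ± 3.82 CPM in FPI microglia (log2 fold change 1.66, SE 0.45, edgeR adjusted p = 0.068) without overlap, as for 2.17% of tested genes with FPI above. Its call was lost without sham library 3 or 4 or FPI library 1 or 2 (adjusted p up to 0.24). Of the 11, 10 had a positive log2 fold change, beside 5910 of all 12143 genes tested in microglia. The median of the 11 was 0.87, beside -0.009 over all tested genes. Of these 11 targets, 4 were at an unadjusted edgeR p below 0.05, a larger share than the 1377 of all 12143 tested genes. A shift of the 11 as a set was not tested. Ccl3, a chemokine for monocytes, was at 53.6 ± 17.3 and 100 ± 49.7 CPM and missed the threshold (0.90, adjusted p = 0.10). Tnf, the 1 target of the 11 with a negative log2 fold change (-0.01), was at 16.7 ± 3.58 and 16.6 ± 11.8 CPM.

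Adaptors, kinases, inhibitors and endogenous ligands held no called gene. Of the other TIR adaptors, Ticam2, which links TLR4 to TRIF, was nearest with a log2 fold change of 0.35 (edgeR adjusted p = 0.49), followed by Tirap at -0.31 (adjusted p = 0.69). Of 15 kinases and ubiquitin ligases, Ikbke had 1.2 (adjusted p = 0.35) and Traf3 0.36 (adjusted p = 0.35). Of 9 inhibitors, Nfkbia, which holds NF-κB in the cytoplasm and is a target of it, had 0.43, below the fold threshold (adjusted p = 0.093), and Tnfaip3 had 0.47 (adjusted p = 0.23). Of 4 ligands tested, S100a9 had 0.80 (adjusted p = 0.85) and Vcan 0.35 (adjusted p = 0.91).

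**Figure D5:**
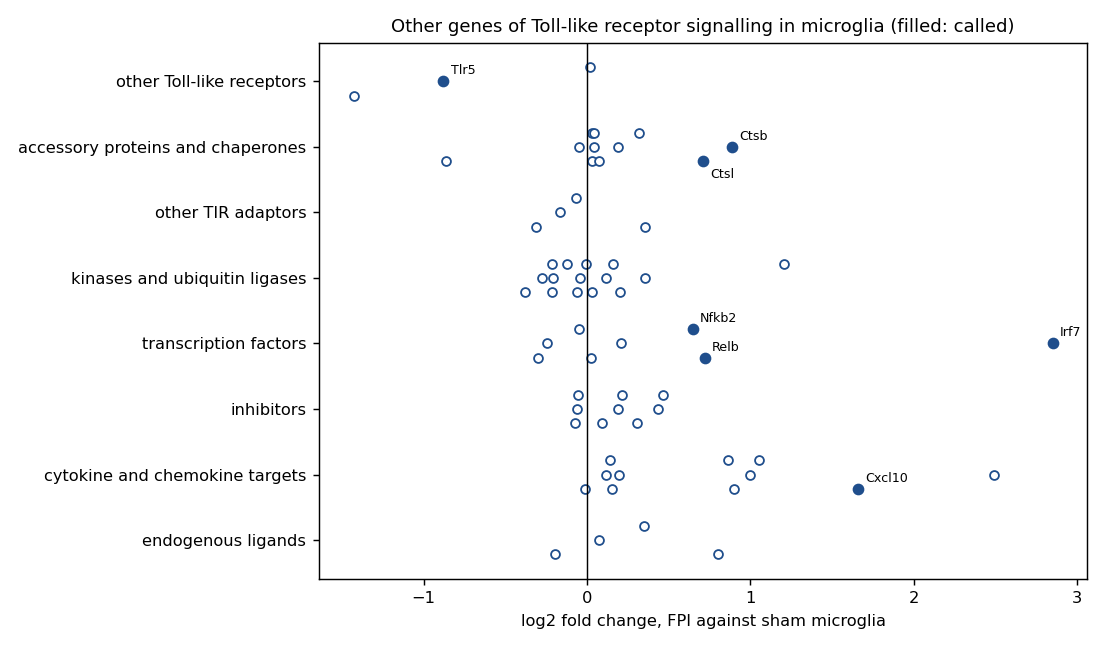
Log2 fold change of FPI against sham microglia (horizontal axis) for the 65 tested genes of Toll-like receptor signaling that are not members, in a line for each role (offset within a line for visibility), with filled points for called genes. Filled points lie right of 0 for 6 genes and left of 0 for Tlr5, and Irf7 is farthest right at 2.85.

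The calls in the pathway depended on single libraries in part. Without sham microglial library 2 the count was 4 of 65, which were Irf7, Ctsb, Relb and Cxcl10. In libraries 4 and 5 alone, and with all 20 libraries in 1 fit, 2 were called, Irf7 and Ctsb each time. The share of all genes called in these fits is not given here. Whether the loss of calls is particular to these genes was not tested.

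In astrocytes 50 of the 79 genes were tested and 0 called by edgeR or DESeq2, where edgeR called 1 of all 13741 tested genes. Of the 50, 4 were at an unadjusted p below 0.05. These were Irf7 (2.14 ± 1.75 in sham and 9.36 ± 7.52 CPM in FPI libraries), Cxcl10 (0.992 ± 0.774 in sham and 4.51 ± 1.86 CPM), Icam1 (1.22 ± 0.911 in sham and 4.57 ± 4.13 CPM) and Vcan (19.7 to 52.6 CPM in sham and 36.3 to 88.0 CPM in FPI libraries). For Cxcl10 the FPI libraries all lay above the sham libraries, as for 0.451% of the genes tested in astrocytes. Each had an edgeR adjusted p of 0.999. The share of all tested genes at an unadjusted p below 0.05 is not given here, so these 4 are not read as a result.

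The gene most like a member over the 10 microglial libraries was found by the root mean square difference of log2 CPM, each gene centered on its own mean, among 12142 others. For Tlr2 it was Cd63 (0.124, beside a spread of 0.438 for Tlr2 itself), for Tlr1 Glrx3 (0.119 beside 0.282) and for Tlr6 Tor4a (0.146 beside 0.344). For Myd88 it was Pja1 (0.150 beside 0.409). For the endosomal receptors it was Zfp110 for Tlr3 (0.103 beside 0.252), Snx6 for Tlr7 (0.075 beside 0.242), H6pd for Tlr9 (0.106 beside 0.239) and Tmed7 for Tlr13 (0.102 beside 0.304). None of these nearest genes is itself a member. Each distance is the smallest of 12142, and likeness beyond such a choice was not tested.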

How the data were processed

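Microglia and astrocytes were sorted from sham and FPI mice, 5 libraries a group. Per the labels and the study's methods, the authors prepared stranded libraries from picogram amounts of total RNA, aligned reads to mm10 (GRCm38.p6) with HISAT2 2.1.0, and deposited whole-number counts of reads per gene, not normalized. The submitters' processing notes list featureCounts, whose settings are not given in the sources used here. Groups were taken from the titles. The genes and lists were chosen with earlier results of these data known.

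The microglial and the astrocyte libraries were fitted apart in edgeR 4.0.16 under R 4.3.3, with filterByExpr, TMM factors and the quasi-likelihood test, and together for cell type contrasts and the interaction, which take libraries as independent. P-values were adjusted over all tested genes (Benjamini-Hochberg). Calls used the study's thresholds, an adjusted p below 0.1 and an absolute log2 fold change above 0.6. The test was checked on simulated counts. CPM use TMM factors over all 20 libraries, and exon lengths come from GENCODE M21. Depths of 5.62 to 13.1 M counts on genes limit the precision of genes near 0. Named are the members, the called pathway genes, per role the 2 tested genes of smallest p in microglia, and the nearest gene of each member, of which 2 are not reported here. Unc93b1, Ly96, Tnf, Rela, Rel, Nfkb1, Irf3, Irf5 and the 4 astrocyte genes at an unadjusted p below 0.05 were named after their values were seen.

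Alternatives were DESeq2 1.42.0, RLE factors, other filters and thresholds, robust empirical Bayes, a replicate block and a term for the series of library names. Further ones were summing FPI astrocyte libraries 2 and 5, leaving out astrocyte libraries of shared animals, 1 fit of all libraries, and leaving out each library. Fits of 1 series of library names alone, and of or with a term for astrocyte replicates 4 and 5, were chosen after seeing the data. Tables and figures were made in Python 3.11.15 (numpy 2.4.6, scipy 1.17.1, pandas 2.3.3, matplotlib 3.10.9).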

Additional observations from a re-analysis of the deposited data

Results flagged for a closer look

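Tlr13 in FPI astrocyte library 1 stood at 5.46 CPM, apart from the other 4 FPI astrocyte libraries, which were at 0 to 1.502 CPM. Its gap to the nearest library exceeded the 95% critical value of Dixon's test. Of 31 combinations of gene and group checked, 1 was marked, and chance marks about 1 in 20. The same library held the most Tlr7 of the 10 astrocyte libraries (3.504 CPM) and 0 reads of Tlr9. Its microglial markers stood at a median of 0.444% of the FPI microglial level, below the 0.525% of FPI astrocyte library 5.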

How the results depend on the processing

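Of 173 counts of called genes under alternatives, 158 stayed within 1.5 times the main count. Tlr2 in microglia was called under each alternative apart from the fit of all 20 libraries, where 0 members were called, and the fit of libraries 4 and 5 alone, also 0. Libraries 1 to 3 alone called 2 members, Tlr2 and Myd88. In astrocytes the fit of all 20 libraries called 2, Tlr7 and Tlr13, which did not pass the filter in astrocytes alone and entered this fit through their microglial reads. With at least 10 counts required in every library, 2 of the 3 members left were called between cell types in sham and 2 in FPI mice, since the others were no longer tested. For the interaction DESeq2 called 2 members, and 1 was called with every gene of at least 1 count and 1 without the astrocyte libraries of shared animals. Of the pathway genes in microglia, libraries 4 and 5 alone called 2 and the fit of all 20 libraries 2. The cause of these differences was not tested. The share of all genes called in each of these fits is not given here, so the counts are not read further.

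The share of all genes called without each library is not given here. Leaving out 1 library at a time gave 0 to 2 interaction calls and 4 to 8 pathway calls in microglia. It turned the sign of log2 fold changes near 0, with ranges of -0.19 to 0.0533 for Tlr13, -0.0488 to 0.23 for Tlr4, -0.30 to 0.0663 for Tlr6, -0.0663 to 0.18 for Tlr7 and -0.14 to 0.0217 for Tlr9 in microglia, and of -0.80 to 0.53 for the Tlr2 interaction. The Tlr2 interaction was also positive at 0.0085 under the replicate block, 0.0218 with FPI astrocyte libraries 2 and 5 summed and 0.84 without the astrocyte libraries of shared animals. Libraries 4 and 5 alone turned the microglial values of Myd88 (0.47), Tlr13 (0.31), Tlr3 (0.10), Tlr6 (0.25) and Tlr9 (0.0805), and libraries 1 to 3 alone those of Tlr4 (-0.0907) and Tlr7 (-0.22). In astrocytes replicates 4 and 5 alone turned Tlr3 (0.14). None of these turned values was called.

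Replicate numbers come from the titles, which describe no pairing of libraries. The correlation of same-numbered deviations was -0.07 to 0.09 in microglia and -0.01 to 0.45 in astrocytes. In astrocytes it was 0.45, -0.009, 0.245, 0.452 and 0.348 for replicates 1 to 5. The main astrocyte fit has no term for the replicate number, and what these correlations come from was not tested. Under the replicate block, Tlr2 kept its call (0.74, edgeR adjusted p = 0.015), 7 pathway genes were called in microglia and 255 genes in all, beside 285 without the block. In astrocytes 11 genes were called in all, beside 1. Depth limits the genes near 0 in astrocytes, where 1 to 3 reads decide a level.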
